A study of Mus musculus with 13 samples.

Results

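The regions described here are 1575 sites of mouse embryonic stem cells (ESCs) that bound both NCoR and SMRT, co-repressors of nuclear receptors, and lay next to the active chromatin mark H3K27ac. They were chosen by measured values. From the 5245 merged ESC co-repressor sites the rule took those that overlapped both the NCoR and the SMRT list (2766), then those that overlapped no NCoR or SMRT interval at day 9 of reprogramming (1911), then those with an H3K27ac interval of ESCs or of mouse embryonic fibroblasts (MEFs) centred within 1 kb of the site centre (1575). They are called dual sites here, and a site or region is called acetylated in a library where an interval of that library's H3K27ac list is centred within 1 kb. Only the co-repressor pair was particular to ESCs, and only against day 9, since MEF co-repressor binding was not analysed here. The acetylation was not particular to ESCs, because 79.0% of the dual sites were acetylated in MEFs as well.

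NCoR and SMRT are large, related scaffold proteins without enzymatic activity of their own. They are brought to DNA by unliganded nuclear receptors and other transcription factors, and they bind and activate the histone deacetylase HDAC3, which removes acetyl groups from histone tails. H3K27ac is written by the acetyltransferases p300 and CBP and marks active promoters and enhancers, so these sites pair a deacetylase scaffold with a mark of active chromatin.

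The ESCs were C57BL/6J cells kept in N2B27 medium with LIF and the inhibitors CHIR99021 and PD0325901, and they supplied NCoR, SMRT, H3K27ac and input libraries. The MEFs, untreated, and all reprogramming cultures were C57BL/6J-OG2 cells, a line background that carries an Oct4 reporter transgene. Reprogramming cultures were MEFs given OCT4, SOX2, KLF4 and c-MYC by virus (OSKM) in LIF-containing ESC medium with serum or serum replacement, and they supplied NCoR and SMRT at day 9. For H3K27ac at days 5, 9 and 13 the OSKM cultures also received either a FLAG control plasmid or HDAC3-YF, the Y298F mutant of HDAC3 without deacetylase activity, so both arms carry OSKM and the MEFs' own HDAC3. The question behind the series is whether the co-repressors hold back reprogramming. Each group was 1 library (13 in all, 12 with an interval list, ESC input not analysed here), so no spread between replicates exists and no test between conditions was made. Strain, medium and cell type cannot be told apart between ESCs and the other cells. In a mixed culture, fewer cells with a mark and less mark per cell cannot be told apart either. The 95% intervals given are exact binomial ones, or paired ones for differences. They cover the counting of sites only and treat sites as independent.

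The lists were checked against their labels at marker genes, by the number of H3K27ac intervals in the gene and 20 kb on each side. The 8 ESC genes (Pou5f1, Nanog, Esrrb and others) held 50 intervals in ESCs, 10 in MEFs and 7 to 12 in the OSKM libraries. The 8 MEF genes (Col1a1, Prrx1, Twist1 and others) held 3, 41 and 6 to 19. At day 13 Esrrb, Dppa5a and Tdgf1 each had 1 interval with HDAC3-YF and none with FLAG, and Zfp42 and Tfcp2l1 had none in either arm.

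The promoters below show the DNA beside 7 dual sites on which later results turn. Utf1 and Ocln are the pluripotency and epithelial list genes with a dual site at the start, Sin3a is a co-repressor gene, and Dnmt3b is a gene with 2 dual sites. The Sox21 site had H3K27ac within 1 kb in ESCs and in no other library, Cyp2r1 only with HDAC3-YF on every day of reprogramming, and Nkain2 with HDAC3-YF and not FLAG on 2 days. Each sequence is the 250 bases before the gene start, on the gene's own strand and 5′ to 3′, from the RefSeq promoter table of GRCm38.p6 (the coordinates of mm10). Capitals mark any of 14 short motifs that were searched for, which here are GGGCGG or its reverse complement (GC box), CCGGAAG (ETS), GCATGCGC (NRF1 core, shown as its reverse complement) and GATTGG (bound by NFY). The windows are Utf1 chr7:139943606-139943855 plus strand, Ocln chr13:100552499-100552748 minus strand, Dnmt3b chr2:153649199-153649448 plus strand, Sin3a chr9:57076126-57076375 plus strand, Sox21 chr14:118237031-118237280 minus strand, Cyp2r1 chr7:114562973-114563222 minus strand and Nkain2 chr10:32889916-32890165 minus strand.
Utf1: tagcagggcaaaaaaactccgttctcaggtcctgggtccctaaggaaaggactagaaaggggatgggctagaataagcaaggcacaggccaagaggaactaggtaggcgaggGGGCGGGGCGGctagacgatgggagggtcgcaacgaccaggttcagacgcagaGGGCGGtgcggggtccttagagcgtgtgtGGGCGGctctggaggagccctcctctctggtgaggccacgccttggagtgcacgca
Ocln: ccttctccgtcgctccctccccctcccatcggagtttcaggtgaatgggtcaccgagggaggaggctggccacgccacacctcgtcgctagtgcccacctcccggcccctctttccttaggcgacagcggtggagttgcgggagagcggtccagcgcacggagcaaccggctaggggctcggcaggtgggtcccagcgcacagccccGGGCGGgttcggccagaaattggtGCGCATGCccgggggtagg
Dnmt3b: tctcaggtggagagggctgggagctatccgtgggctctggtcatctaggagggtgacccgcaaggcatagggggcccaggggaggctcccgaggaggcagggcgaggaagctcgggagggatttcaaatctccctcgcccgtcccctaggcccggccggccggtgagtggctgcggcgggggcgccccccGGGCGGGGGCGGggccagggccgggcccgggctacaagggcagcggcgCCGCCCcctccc
Sin3a: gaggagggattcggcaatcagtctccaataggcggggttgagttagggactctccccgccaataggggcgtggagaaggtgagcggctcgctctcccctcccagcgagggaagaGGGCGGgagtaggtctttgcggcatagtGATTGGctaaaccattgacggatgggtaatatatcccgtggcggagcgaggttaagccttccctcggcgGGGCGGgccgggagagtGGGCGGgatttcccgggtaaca
Sox21: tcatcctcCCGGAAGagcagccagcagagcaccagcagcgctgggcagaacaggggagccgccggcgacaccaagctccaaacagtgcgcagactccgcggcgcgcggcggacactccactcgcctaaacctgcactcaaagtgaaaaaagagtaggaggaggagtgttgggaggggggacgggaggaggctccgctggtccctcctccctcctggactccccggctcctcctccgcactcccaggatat
Cyp2r1: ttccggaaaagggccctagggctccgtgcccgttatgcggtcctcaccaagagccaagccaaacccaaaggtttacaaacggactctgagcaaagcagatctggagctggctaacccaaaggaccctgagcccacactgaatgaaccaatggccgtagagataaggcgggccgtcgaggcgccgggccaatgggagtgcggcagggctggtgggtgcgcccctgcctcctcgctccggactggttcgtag
Nkain2: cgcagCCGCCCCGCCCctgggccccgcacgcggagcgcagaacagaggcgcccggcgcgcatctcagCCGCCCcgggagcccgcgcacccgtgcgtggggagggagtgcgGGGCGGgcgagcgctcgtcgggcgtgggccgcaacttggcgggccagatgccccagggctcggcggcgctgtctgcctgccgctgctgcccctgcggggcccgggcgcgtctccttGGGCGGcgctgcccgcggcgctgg

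In the Dnmt3b window 2 GC boxes abut, and at Utf1 and Nkain2 a pair shares 1 base. The Nkain2 window holds 5 GC boxes and 39 CpG dinucleotides at 81.6% G plus C. Cyp2r1 held none of the 14 motifs in these 250 bases. The dual sites themselves lay mostly just inside the gene. At Utf1 (chr7:139944085-139944284) the site centre was 329 bp after the start, at Sin3a (chr9:57076574-57076773) 298 bp, at Cyp2r1 (chr7:114562785-114562984) 88 bp, at Nkain2 (chr10:32889750-32889949) 66 bp, at Sox21 (chr14:118236896-118237095) 35 bp and at Ocln (chr13:100552375-100552574) 24 bp. Dnmt3b had sites centred 79 and 398 bp after its start (chr2:153649428-153649627 and chr2:153649747-153649946). Of the printed bases the site covers the last 76 at Ocln, 65 at Sox21, 34 at Nkain2, 21 at Dnmt3b and 12 at Cyp2r1. The exon structure was not used here, so whether a site is exonic or intronic is not given.

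Of the 1575 dual sites, 1563 were the same 200 bp interval in both ESC lists, and the other 12 were wider, up to 386 bp. These identical intervals carry the same deposited score in both lists. How the lists were made is not stated, so the pair of co-repressors is not taken as 2 independent calls. That score is signed and is no measure of height. It ran from -0.99 to 1.00 over the dual sites, with a median of 0.00. Many sites tied at the highest value, and those at Arfgef3, Ccdc105, Usp22, Tob1 and Tmx1 are only examples of them. Sites with the lowest values lay at Got1l1, Sgk1, Synpo, Ptprj and Hepacam. Absence at day 9 was strict for overlap but not for neighbourhood, as 489 dual sites (31.0%) had a day 9 co-repressor interval centred within 1 kb.

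At most dual sites H3K27ac was present in every kind of cell examined. The mark was found at 96.3% in ESCs (95.3 to 97.2%) and at 82.7% in MEFs (80.7 to 84.5%), 2 values that the rule itself used. The rule did not use the H3K27ac of the OSKM cultures. There the mark was found at day 5 at 76.5% of the dual sites in the FLAG arm and 74.5% in the HDAC3-YF arm. The shares were 77.1% and 76.7% at day 9, and 79.6% and 85.4% at day 13. In all 8 libraries it was present at 1033 sites (65.6%), and in only 1 library at 126 (8.0%), of which 112 were acetylated in ESCs and 14 in MEFs. The next most frequent pattern, at 59 sites, was ESCs and the day 13 HDAC3-YF library.

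The 200 bp intervals of the mark and the co-repressors overlapped at 50.8% (48.3 to 53.4%) of the dual sites acetylated in ESCs and at 52.4% (49.6 to 55.1%) of those acetylated in MEFs. As shares of all dual sites these are 49.0% and 43.3%. The nearest H3K27ac centre was a median of 194 bp away in ESCs and 191 bp in MEFs. In the 6 OSKM libraries this median was between 185 and 206 bp. The H3K27ac beside dual sites scored high within its own list. In ESCs 58.5% of the nearest intervals were at the ceiling score of 200, against 24.4% of the whole list, and in MEFs 68.5% against 25.9%. At day 13 the same shares were 3.75% against 1.67% with FLAG and 4.31% against 2.11% with HDAC3-YF. The scale of this score is not stated and its ceiling is reached at very different rates, so it is compared only within a list.

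**Figure D1:**
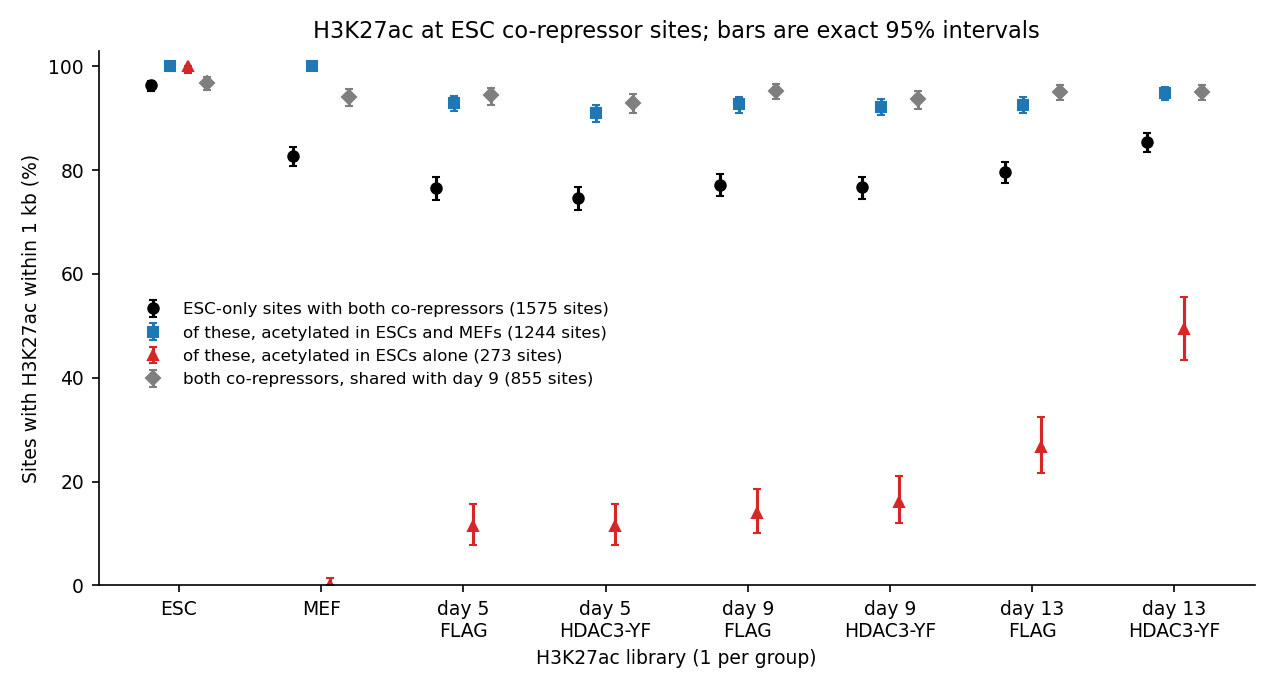
Share of sites (vertical axis, percent) with H3K27ac within 1 kb in each of the 8 H3K27ac libraries (horizontal axis, 1 library per group), for all dual sites, those acetylated in both ESCs and MEFs, those acetylated in ESCs alone, and sites with both co-repressors that are shared with day 9. Bars are exact 95% intervals over sites. The ESC and MEF points of the 2 subsets are fixed by how they were defined, and in ESCs alone the day 13 HDAC3-YF point (49.5%) stands above the FLAG point (26.7%).

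Sites with both co-repressors that did overlap a day 9 interval (855) were acetylated more often in the OSKM libraries. Their shares lay between 93.0% and 95.3% there, against 74.5% to 85.4% for the dual sites. The classes were split by co-repressor binding in the OSKM cultures themselves, and only the dual sites were filtered on H3K27ac. The contrast is therefore a description. The ESC and MEF values were used to choose the dual sites and are not compared. Sites not shared with day 9 that had only NCoR (357) or only SMRT (648), with H3K27ac by the same rule, ran lower than the dual sites in the OSKM libraries, from 66.1% to 73.4% for NCoR and from 63.6% to 75.6% for SMRT. The 336 sites with both co-repressors but no H3K27ac in ESCs or MEFs remained mostly without it, with shares from 4.17% to 10.7% in the OSKM libraries.

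By cell type, 1244 dual sites (79.0%, 76.9 to 81.0%) were acetylated in ESCs and MEFs, 273 (17.3%, 15.5 to 19.3%) in ESCs alone and 58 (3.68%, 2.81 to 4.73%) in MEFs alone. Over all ESC co-repressor sites, 10.2% were acetylated in ESCs and not MEFs and 2.99% in MEFs and not ESCs. Because the rule asked for acetylation in ESCs or MEFs, these shares are descriptions and nothing is read from their distance to that background. With direct overlap in place of 1 kb the rule keeps 940 sites, and the share acetylated in ESCs alone is 27.4%. The 3 groups behaved differently in the OSKM cultures. Sites acetylated in both cell types were acetylated at 91.0% to 94.9% there, sites of MEFs alone at 19.0% to 50.0%, and sites of ESCs alone at 11.4% to 49.5%.

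Of the 273 sites acetylated in ESCs alone, 112 were acetylated in no OSKM library, 73 in 1 and 9 in all 6. For 24 of the 112 an interval of MEFs or an OSKM library was centred further away but within 5 kb, and the named genes are among these 24. Sox21, a transcription factor of the SOX family, had an ESC interval at the ceiling score of 200 and none within 1 kb in the other 7 libraries, but 1 within 5 kb in each of the 6 OSKM libraries. Lig4, the ligase of non-homologous end joining, had an ESC score of 15.3, below the median of 35.8 of that list, and an interval within 5 kb in each of the other 7 libraries. Tal1, a regulator of blood formation, had an ESC score of 12.4 and a MEF interval within 5 kb. Palld and Samd1, with sites inside the gene, were at the ceiling in ESCs. Within 5 kb Palld had an interval in both arms at days 5 and 9, and Samd1 in MEFs and with HDAC3-YF at days 9 and 13. At these genes the ESC-only pattern thus holds for the 1 kb limit and not for 5 kb.

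Sites acetylated in MEFs and not ESCs lay at or near genes such as Flnc (filamin C, an actin cross-linker), Cavin1 (a coat protein of caveolae), Tspan12, Bcl2l11 (the pro-apoptotic BIM), Il11ra1 (an interleukin receptor) and Sap30 (a subunit of the SIN3 deacetylase complex). Flnc had a MEF score of 153, against a list median of 37.7, and stayed acetylated in 5 of the 6 OSKM libraries, with day 5 FLAG as the exception. Tspan12 and the site nearest to Zcchc14 were acetylated in all 6, Cavin1 only in the day 13 HDAC3-YF library (though with an interval within 5 kb in all 6), and Kdr, a receptor for vascular endothelial growth factor, in MEFs and nowhere else. Bcl2l11, Il11ra1, Sap30 and the Zcchc14 site had an ESC interval within 5 kb, so their lack of ESC acetylation holds for the 1 kb limit only. Flnc, Cavin1, Tspan12 and Kdr had no ESC interval within 5 kb. As a group the 58 sites were acetylated at day 5 at 29.3% in the FLAG arm and 19.0% in the HDAC3-YF arm, at 41.4% and 29.3% at day 9, and at 48.3% and 50.0% at day 13. The paired intervals of the difference between arms span 0 on each day.

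HDAC3-YF was compared with FLAG on the same sites and the same day. The comparison asks whether H3K27ac next to the ESC co-repressor sites differs where the inactive HDAC3 mutant was added. At day 5 the HDAC3-YF library had the mark at fewer dual sites, at day 13 at more. At day 5, 33 dual sites (2.10%) were acetylated with HDAC3-YF only and 64 (4.06%) with FLAG only, a difference of -1.97 percentage points (-3.19 to -0.747). Over all ESC co-repressor sites 1.7% were acetylated with HDAC3-YF only and 3.22% with FLAG only on that day. At day 9 the counts were 62 (3.94%) and 69 (4.38%), a difference of -0.444 points (-1.87 to 0.980) whose interval spans 0, against 2.38% and 3.11% of all ESC co-repressor sites. At day 13, 147 dual sites (9.33%) were acetylated with HDAC3-YF only and 55 (3.49%) with FLAG only, a difference of 5.84 points (4.10 to 7.59), against 6.41% and 2.71% of all ESC co-repressor sites.

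Side by side over the other classes of ESC site, the day 13 difference was 4.20 points for NCoR only (0.801 to 7.60), 6.17 for SMRT only (3.19 to 9.16), 2.68 for both without H3K27ac (-0.858 to 6.22, spanning 0) and 0 for both co-repressors shared with day 9 (-1.26 to 1.26). The shared sites were acetylated at 95.1% in each arm, with 15 sites acetylated with HDAC3-YF only and 15 with FLAG only. The part of this high share in the result was not tested. The HDAC3-YF list was the shorter of the 2 at day 13 (14251 against 15394 intervals). A larger part of it lay at gene starts or ends, 68.0% against 60.8% for FLAG. The part of this placement in the result was not tested. Dual sites at a gene start or end were acetylated at 85.4% with FLAG, and the difference was 5.03 points (3.25 to 6.82). Those elsewhere were acetylated at 53.2% with FLAG, and the difference was 9.51 points (4.23 to 14.8). With direct overlap the day 5 difference is -3.83 points. At day 9 the direction changed with the setting. It was 1.58 points with equal numbers of intervals taken from each list and -2.37 with the top 50% of each, and the reason was not tested.

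Counted in sites, most of the day 13 difference came from those acetylated in ESCs alone. In these 273 sites the arms were close early, at 11.4% in each arm at day 5, and 13.9% (FLAG) and 16.1% (HDAC3-YF) at day 9. At day 13 they were acetylated at 26.7% with FLAG (73 sites, 21.6 to 32.4%) and at 49.5% with HDAC3-YF (135 sites, 43.4 to 55.5%). The paired counts were 77 sites with HDAC3-YF only and 15 with FLAG only, a difference of 22.7 points (16.4 to 29.0). Over all 535 ESC co-repressor sites acetylated in ESCs alone, a set that includes these, 24.3% were acetylated with HDAC3-YF only and 5.79% with FLAG only, against 28.2% and 5.49% of the dual sites. That is a difference of 18.5 points (14.1 to 22.9), whose interval overlaps that of the dual sites. Of the 77 sites, 2 had a FLAG interval centred further away but within 5 kb, and of the 15, 2 had an HDAC3-YF interval there. In the 1244 sites acetylated in both cell types the counts were 62 and 33 and the difference 2.33 points (0.801 to 3.86). Those 1244 sites were already acetylated at 92.6% with FLAG, and the part of this in the smaller difference was not tested. Where FLAG lacked the mark, it was there with HDAC3-YF at 62 of them and in neither arm at 30. For the sites of ESCs alone these counts were 77 and 123. The net excess of the HDAC3-YF library was 92 dual sites, and 62 of these (67.4%) were acetylated in ESCs alone, a group that makes up 17.3% of the dual sites.

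Position and distance to day 9 binding divided these 273 sites further. At a gene start or end (141 sites) the day 13 shares were 29.1% with FLAG and 59.6% with HDAC3-YF, a difference of 30.5 points (21.5 to 39.5). Elsewhere (132 sites) they were 24.2% and 38.6%, a difference of 14.4 points (5.70 to 23.1). The 255 sites without a day 9 co-repressor centre within 1 kb had 23.9% and 48.6%. The 18 sites with one had 66.7% and 61.1%, with an interval of the difference from -29.8 to 18.7 points. Sites whose ESC interval was at the ceiling score (47) had 34.04% and 68.1%, and the other 226 had 25.2% and 45.6%.

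Regions acetylated in ESCs and not in MEFs that held no ESC co-repressor site were the nearest comparison, counted from the centre of the H3K27ac interval. Over all 13004 of them the day 13 shares were 6.90% with FLAG and 8.40% with HDAC3-YF. Only 1330 lay at a gene start or end, where 18.3% were acetylated with FLAG and 30.7% with HDAC3-YF. That is 12.3 points apart (9.88 to 14.8). A day 13 excess in the HDAC3-YF list was thus found at such starts or ends without an ESC co-repressor site too. The dual sites of ESCs alone at gene starts or ends differed by 30.5 points. They began from a higher FLAG share (29.1%) and were counted from the co-repressor centre. The 2 values therefore stand side by side as descriptions, and the gap between them was not tested. Elsewhere the 11674 regions differed by 0.266 points (-0.204 to 0.735). Among sites acetylated in ESCs alone and not shared with day 9, the difference with SMRT only (147 sites) was 21.8 points (13.4 to 30.1), and with NCoR only (79) it was 10.1 (1.83 to 18.4). At the 30 sites of ESCs alone with both co-repressors shared with day 9 it was -13.3 (-31.2 to 4.52, spanning 0). With direct overlap the 22.7 points of the dual sites become 14.7, and with the top 50% of each list 13.9. The regions without an ESC co-repressor site were not counted under these settings. At day 13 the 8 ESC marker genes held 12 intervals with HDAC3-YF and 8 with FLAG, and the 8 MEF marker genes 6 and 9. The ESC genes went the other way earlier, with 8 (HDAC3-YF) and 12 (FLAG) at day 9 and 7 and 9 at day 5. The MEF genes held 7 and 17 at day 9 and 19 and 13 at day 5. These counts are small and did not keep 1 direction over the days. The part of the marker genes in the result was not tested.

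**Figure D2:**
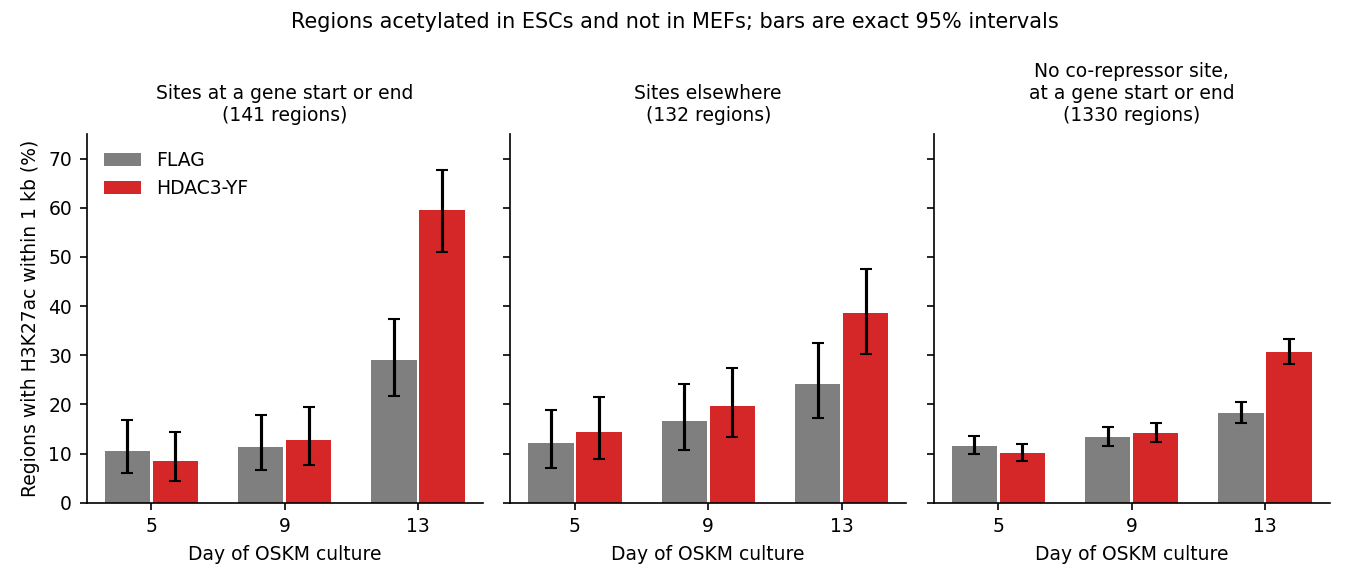
Share of regions (vertical axis, percent) with H3K27ac within 1 kb at days 5, 9 and 13 of OSKM culture (horizontal axis), with FLAG in grey and HDAC3-YF in red, for regions acetylated in ESCs and not in MEFs. The panels are dual sites at a gene start or end (141), dual sites elsewhere (132) and regions without an ESC co-repressor site at a gene start or end (1330). Bars with caps are exact 95% intervals over regions. The arms are close at days 5 and 9 in each panel and apart at day 13, at 29.1% and 59.6%, 24.2% and 38.6%, and 18.3% and 30.7%.

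Among the genes behind the day 13 difference were Utf1, Chn2, Slc35f2, Nkx2-4, Aqp3 and Efhd1, each acetylated in ESCs, not in MEFs, and at day 13 with HDAC3-YF and not FLAG. These examples were ranked after the day 13 result was known and are descriptions. Utf1, a chromatin protein of pluripotent cells, had an ESC score of 95.9, was then without an interval until the day 9 HDAC3-YF library (9.54), and had one at day 13 with HDAC3-YF (22.8, above that list's median of 16.4). In MEFs, at day 5 in both arms and with FLAG on days 9 and 13 it had none. Tbl1xr1, which encodes a core subunit of the NCoR and SMRT complexes themselves, had ceiling scores in ESCs, in both arms at day 5 and in the day 13 HDAC3-YF library, and no interval within 1 kb in the other 4. It is 1 of the 2 sites with a FLAG interval within 5 kb at day 13, and it had an interval within 5 kb in each of the 8 libraries, so its pattern rests on the 1 kb limit. Its site (chr3:22075726-22075925) was centred at position -826 bp, before the gene start. Slc35f2, a solute carrier, had scores of 33.3 at day 9 and 38.9 at day 13 with HDAC3-YF and none with FLAG, and Aqp3, a water and glycerol channel, had 8.17 at day 13 with HDAC3-YF only. The opposite pattern at a gene start was found at 4 genes, Atp6v0e2, Tesc, Tspan33 and Pld6.

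Over the days, 1246 dual sites (79.1%) had the same state in both arms at days 5, 9 and 13. Both arms were acetylated on all days at 1048 and neither on any day at 138. Recurrence in one direction was rare and balanced, with 23 sites acetylated with HDAC3-YF only on 2 or more days (and with FLAG only on none) and 21 the other way round. These are 1.46% and 1.33% of the dual sites, beside 0.896% and 1.03% of all ESC co-repressor sites.

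Only Cyp2r1, a vitamin D hydroxylase, was acetylated with HDAC3-YF and not FLAG on all 3 days, with HDAC3-YF scores of 9.14, 13.8 and 20.8 at days 5, 9 and 13. It was also acetylated in ESCs (87.1) and MEFs (33.5). Others on 2 days were Rmi2 (a subunit of the BLM helicase complex), Bub1 (a spindle checkpoint kinase), Il17d and Nkain2. At Rmi2 a FLAG interval lay within 5 kb on each of these days. A site between genes, nearest to Bptf (the large subunit of the remodeller NURF), was also acetylated with HDAC3-YF only on 2 days. The other site named by Bptf was acetylated in all 8 libraries. Trnp1 (chr4:133497978-133498177), a nuclear protein of neural progenitors, was acetylated with FLAG and not HDAC3-YF on all 3 days. Its FLAG scores were low, from 7.40 to 8.83. Slc45a4, Paqr8 (a membrane progestin receptor), Sned1, Insm1 (a factor of neuroendocrine cells) and Vgll4 (a cofactor of TEAD proteins) were so on 2 days. Of these Insm1 had a day 13 HDAC3-YF interval within 5 kb. At Sin3a the mark was within 1 kb in each library but day 13 FLAG, which had an interval within 5 kb, and at both Dnmt3b sites in each but day 9 HDAC3-YF.

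**Figure D3:**
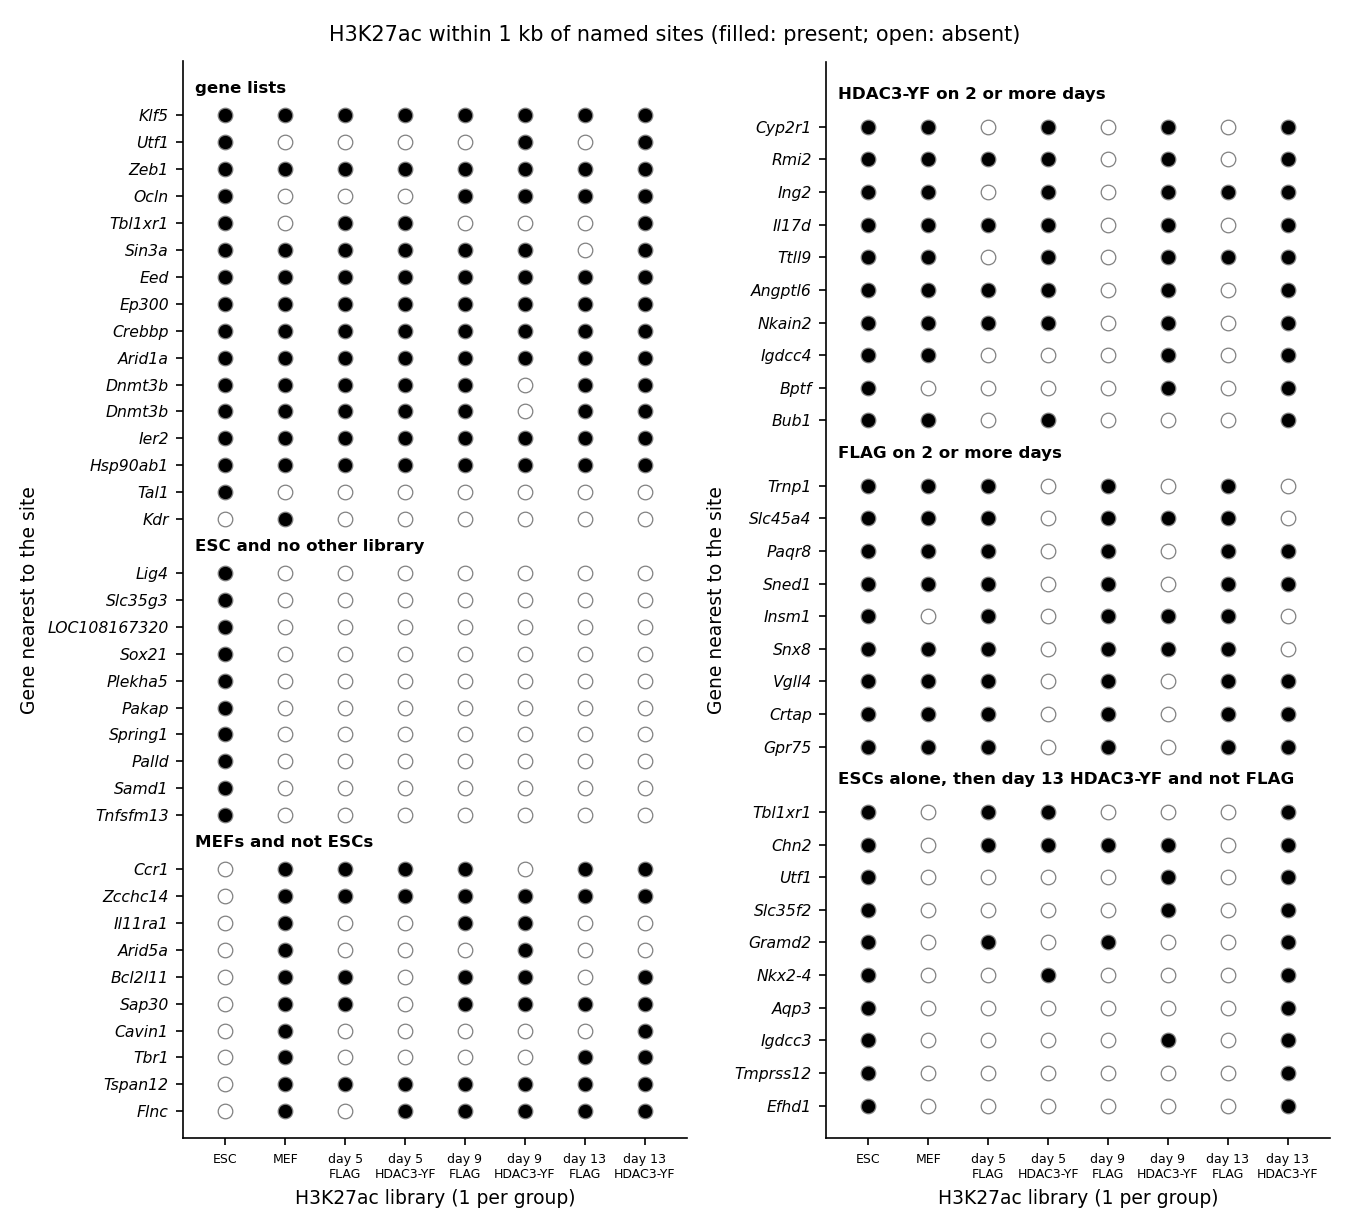
Presence (filled) or absence (open) of an H3K27ac interval within 1 kb of named dual sites (rows, by nearest gene) in the 8 H3K27ac libraries (horizontal axis). Blocks are gene list members, sites acetylated in ESCs and no other library, in MEFs and not ESCs, with HDAC3-YF only on 2 or more days, with FLAG only on 2 or more days, and in ESCs alone with day 13 HDAC3-YF and not FLAG; each block but the first shows the pattern by which it was chosen. Cyp2r1 is filled in all 3 HDAC3-YF columns and no FLAG column, and Trnp1 shows the reverse.

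Of the 15 gene lists, those of splicing, the proteasome and chromatin regulators had the largest shares of genes with a dual site at the start. Of 17492 protein-coding genes with a start in the promoter table, 1106 (6.32%) had a dual site within 1 kb of it. The rule kept only sites with H3K27ac in ESCs or MEFs, while the 6.32% covers genes with and without the mark. Nothing is therefore read from the distance of a list to it, and the shares are descriptions. Among splicing and RNA processing genes it was 6 of 19, namely the splicing factors Srsf3, Srsf5, Srsf6 and Srsf7 and the RNA-binding proteins Hnrnpa2b1 and Hnrnpk. Among ubiquitin and proteasome genes it was 3 of 14 (the proteasome subunits Psma1, Psma3 and Psmd11), and among cytosolic ribosomal proteins 2 of 15 (Rpl5 and Rps3). Mitochondrial genes had 1 of 15 (Sdha, of the succinate dehydrogenase), cell cycle genes 1 of 16 (E2f3) and MYC-driven growth genes 1 of 16 (Ncl, nucleolin). All of these were acetylated in all 8 libraries.

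Chromatin regulators had 5 of 28. These were Eed (Polycomb), Ep300 and Crebbp, which encode the p300 and CBP enzymes that write H3K27ac, Arid1a (a subunit of SWI/SNF remodellers) and Dnmt3b, a de novo DNA methyltransferase. Ep300 and Arid1a were at the ceiling score in each of the 8 libraries, and so was Crebbp but for day 13 HDAC3-YF (192). Dnmt3b was far from the ceiling throughout, with scores of 20.5 in ESCs and 42.9 in MEFs and between 13.4 and 20.2 in the 5 OSKM libraries that had an interval. The co-repressor complexes had 2 of 17 (Tbl1xr1 and Sin3a).

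Pluripotency genes had 1 of 19 (Utf1), epithelial genes 1 of 13 (Ocln, a tight junction protein), lineage markers 2 of 17 (Tal1 and Kdr), and fibroblast and mesenchymal genes (19), clock genes and nuclear receptors (22), signalling genes (25) and stress and immediate early genes (16) none. Klf5, Zeb1, Ier2, Hsp90ab1, Usp22 and Ndufs1, without a start in the table, had one at an annotated end. Ocln was acetylated in ESCs (178) and not in MEFs, in neither arm at day 5, and in both arms at days 9 and 13, with scores from 8.42 to 12.9. With lists this short a count of 1 or 2 lies near the 6.32% of all genes. The lists were compiled with earlier results of these data known.

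Some genes carried more than 1 dual site, and some sites more than 1 gene. At 36 genes there were 2 or more dual sites within 1 kb of the start, among them Dnmt3b, Brd9 (a bromodomain subunit of SWI/SNF remodellers), Chd9 (a chromodomain helicase), Clcn3, Bzw1 and Cpne1. Conversely 109 dual sites lay at the start of 2 or more genes.

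Dual sites sat at gene starts, a little way inside the gene. Of the 1530 dual sites off chromosome 18, for which the promoter table has no entry, 1032 (67.5%, 65.0 to 69.8%) were centred within 1 kb of a start, against 52.0% of all ESC co-repressor sites, 64.1% of those with NCoR only and 61.7% of those with SMRT only. The share was higher for sites shared with day 9 (77.1%, 74.1 to 79.9%) and low for ESC-only sites without H3K27ac (7.86%). The rule left out sites without H3K27ac in ESCs or MEFs, so nothing is read from the distance of the dual sites to the 52.0%. Among the dual sites it was 76.1% where both ESCs and MEFs were acetylated and 33.5% where ESCs alone were. Of the 1032, 869 (84.2%, 81.8 to 86.4%) were centred after the start, and the median position was 226 bp into the gene (quartiles 105 and 398 bp). Sites with NCoR only were after the start in 74.2% (68.0 to 79.8%), those with SMRT only in 78.1% and shared ones in 85.8%.

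H3K27ac at these starts lay on the same side. The nearest ESC interval was centred a median of 192 bp into the gene and the nearest MEF interval 207 bp, and in the OSKM libraries the median was between 184 and 207 bp. The H3K27ac centre was further into the gene than the co-repressor centre at 39.1% of starts in ESCs (36.1 to 42.2%), 42.5% in MEFs (39.3 to 45.8%) and 39.5% to 43.6% in the OSKM libraries. In each of the 8 libraries the co-repressor centre was thus the further one at most starts. Off the starts and ends of genes, 201 dual sites lay inside a gene and 83 between genes.

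**Figure D4:**
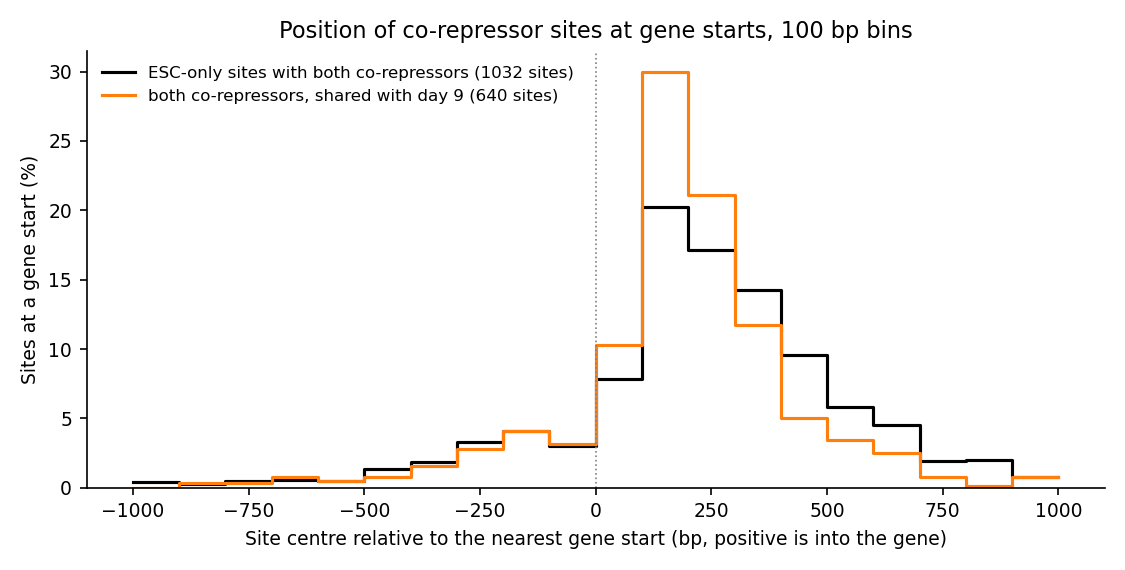
Share of sites at a gene start (vertical axis, percent, 100 bp bins) by the distance of the site centre from the nearest start (horizontal axis, bp, positive into the gene), for dual sites (1032) and for sites with both co-repressors that are shared with day 9 (640). Both curves peak between 100 and 200 bp after the start, and the dual sites extend further in, with a median of 226 bp against 186 bp.

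The promoter windows of dual sites were rich in G plus C and in GC boxes, as were those of the other acetylated or shared classes of ESC co-repressor site. Windows ran from 250 bases before to 50 after the start, and 1007 windows belonged to dual sites, 21263 to all starts and 7861 to starts acetylated in ESCs without a co-repressor site. Their median G plus C content was 65.3%, 56.3% and 61.7%, and their median number of CpG dinucleotides 26, 13 and 22. GGGCGG, the GC box bound by SP and KLF proteins, was in 76.3% of dual-site windows (73.5 to 78.9%), in 46.2% of all windows and in 68.0% of the acetylated windows without a co-repressor. It was in 76.3% of windows with NCoR only, 73.4% with SMRT only and 74.8% of those shared with day 9, so it was not particular to dual sites. Only 109 of the 1007 dual-site windows held the site centre. Motifs were sought on both strands, and matches describe letters, not binding.

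Among the other motifs, CCGGAAG (ETS) was in 18.5% of dual-site windows, 11.6% of all and 19.8% of the acetylated ones without a co-repressor. The same order gives 9.53%, 7.84% and 11.0% for CACGTG, the E-box bound by MYC and by clock proteins. For its extension CACGTGAC, whose matches are also E-box matches, it gives 4.27%, 2.84% and 4.50%, and for GCATGCGC (NRF1 core) 5.36%, 3.52% and 5.58%. TGACGTCA (CRE) gave 4.17%, 2.23% and 3.37%, AAGATGGC (YY1) 5.36%, 3.05% and 4.66%, CTCGCGAG (Kaiso core) 2.38%, 1.24% and 2.04%, and GATTGG (bound by NFY) 19.9%, 18.2% and 21.1%. Less frequent than over all windows were TGANTCA (AP-1; 2.38%, 6.99% and 4.25%, where the intervals of the first, 1.53 to 3.53%, and the last, 3.81 to 4.72%, do not overlap), CATTGT (SOX core; 5.96%, 11.0% and 6.49%) and ATGCAAAT (octamer; 0.993%, 1.66% and 1.51%). AGGTCA, the core recognised by nuclear receptors, was in 10.3%, 14.7% and 11.5%. The longer TCAAGGTCA (ERR), which contains it, was in 0.199%, 0.334% and 0.254%.

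Windows of sites acetylated in ESCs alone (88) differed from those acetylated in both cell types (894) in the ETS motif, which was in 4 of them (4.55%, 1.25 to 11.2%) against 180 (20.1%, 17.6 to 22.9%). The GC box was in 71.6% and 76.7%. The Sox21 window printed above is 1 of the 4 with the ETS letters. Windows of sites shared with day 9 held the NRF1 core in 10.4%, against 5.36% at dual sites. The AP-1 letters were in 2.37% of these shared windows, in 2.23% with NCoR only and in 4.47% with SMRT only.

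Chromosome 8 held far more dual sites than any other chromosome. It had 261 of them (16.6%, 14.8 to 18.5%), or 25.02 for each 100 protein-coding genes, where the other autosomes had 4.19 to 8.81 with a median of 6.95. Of all protein-coding genes 4.77% are on chromosome 8. The excess was in the ESC lists, mainly those of the co-repressors, with 14.0% of the NCoR and 13.9% of the SMRT intervals. ESC H3K27ac had 6.51% there, MEF H3K27ac 5.32%, the day 9 NCoR and SMRT lists 5.62% and 5.80%, and the OSKM H3K27ac lists 5.16% to 5.54%. Between classes the chromosome 8 share was 7.00% for NCoR only, 9.57% for SMRT only, 11.6% for both shared with day 9 and 22.0% for both without H3K27ac. What lies behind this excess was not tested. The day 13 difference between arms was 5.75 points on chromosome 8 and 5.86 off it, and at sites of ESCs alone 18.5 (54 sites) and 23.7 (219 sites).

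The X chromosome was the opposite case, with 4 dual sites (0.254%) and 0.217% and 0.231% of the ESC NCoR and SMRT intervals, against 2.31% of the ESC H3K27ac intervals and 4.41% of the protein-coding genes. The day 9 co-repressor lists had 0.502% and 0.473% there.

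**Figure D5:**
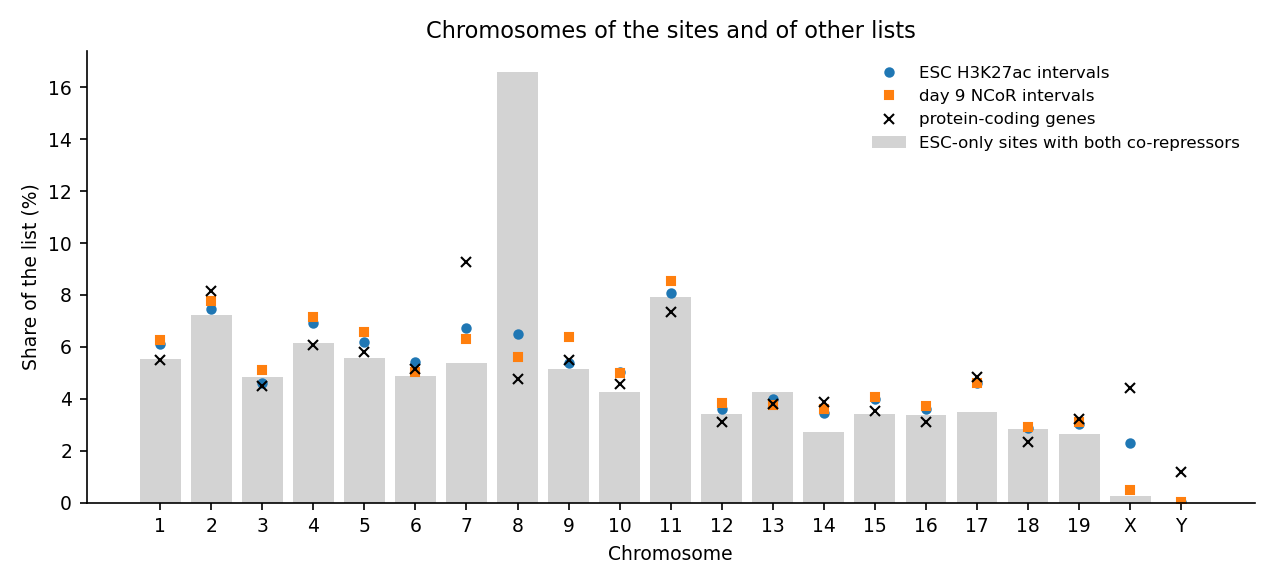
Share of each list (vertical axis, percent) on every chromosome (horizontal axis), for dual sites (bars), ESC H3K27ac intervals, day 9 NCoR intervals and protein-coding genes. Chromosome 8 holds 16.6% of the dual sites against 4.77% of the genes, and the X chromosome 0.254% against 4.41%.

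Few sites stood near the 1 kb limit of the rule. Within 100 bp of it were 6 dual sites, whose nearest ESC or MEF H3K27ac centre was 907 to 982 bp away, and 7 sites that missed it, at 1013 to 1083 bp. The closest inside were near Zfp654, at 982 bp, and in Celsr1 (a cadherin of planar cell polarity), at 960 bp. The closest outside were near Cibar2, at 1013 bp, and Ccdc85c, at 1031 bp. Celsr1 had the mark in ESCs only, and Zfp654 in each library but MEFs.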

How the data were processed

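ChIP-seq intervals from 12 of 13 mouse libraries, 1 per group, were used, and the ESC input was not analysed here. Per the submitters' processing notes the tools were Bowtie2 2.2.0 and MACS 1.4 on mm10, with settings not given in the sources used here. Each library is a file of 200 bp intervals. The authors deposited a score for every interval. The deposited score of the H3K27ac lists has a ceiling of 200 and no stated scale, and the co-repressor score has a sign and is shared by both lists. Read depth is unknown, so precision is that of counted sites.

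Sites were merged where ESC intervals overlapped by 1 bp or more. Python 3.11.15 with numpy 2.4.6, pandas 2.3.3, scipy 1.17.1 and matplotlib 3.10.9 gave shares with exact (Clopper-Pearson) 95% intervals and paired differences with Wald intervals. The counting rules were tested on simulated intervals. No statistical test was made. Genes came from RefSeq tables of GRCm38.p6, which gave starts for 17492 of 21887 protein-coding genes (79.9%), so the gene lists (358 genes, 1 matched by an older symbol) are covered in part, and genes without a start were placed by annotated ends. With no genome, site sequences were not searched.

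The sites and gene lists were chosen with earlier results of these data known. Genes were named by rule: up to 6 per list in list order, the 5 highest and 5 lowest scores, and up to 10 sites per H3K27ac pattern. The sites of a pattern were ranked by H3K27ac intervals within 5 kb, and more than 5 sites tied at the highest score. Some sites named by this rule are not reported here. The split of sites acetylated in ESCs alone by position, score and day 9 distance, its examples, and the choice of Ocln, Dnmt3b and Sox21 for printing were added after values were seen. Alternatives were other distances (500 bp, 2 kb, direct overlap), the top 50% or equal numbers (14251) of H3K27ac intervals, 50% overlap, no day 9 centre within 1 kb, other gene windows and, added after seeing the data, leaving out chromosome 8.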

Additional observations from a re-analysis of the deposited data

Results flagged for a closer look

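Between HDAC3-YF and FLAG the dual sites moved in opposite directions at different times, by -1.97 percentage points at day 5 (33 sites with HDAC3-YF only, 64 with FLAG only) and by 5.84 points at day 13 (147 and 55). Each day is 1 library per arm, and the difference between the days was not tested.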

How the results depend on the processing

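Of 66 alternative values for the 8 results, 43 stayed within the main interval (or 1.5 times for the count) and 23 moved beyond it. None of the differences at days 5 and 13 changed direction under the settings run. At day 9, where the main interval spans 0, equal numbers of H3K27ac intervals gave 1.58 points and the top 50% of each list -2.37. With direct overlap the number of sites was 940, of which 54.6% were acetylated in both cell types, 27.4% in ESCs alone and 70.3% at a gene start, while HDAC3-YF minus FLAG came to -3.83 points (day 5), 8.19 (day 13) and 14.7 (day 13, ESCs alone). The top 50% gave 15.5% in ESCs alone, 72.0% at a gene start and 13.9 points at day 13 in ESCs alone. Without sites near a day 9 centre the values were 71.6% in both, 23.5% in ESCs alone, 63.2% at a gene start and 8.47 points at day 13. Overlap of 50% gave 81.8% in both and 15.0% in ESCs alone, and 500 bp gave 74.1% in both. The share at a gene start was 70.9% with equal numbers and also 70.9% without chromosome 8, 70.3% at 2.5 kb and 72.8% at either annotated end. The causes of these moves were not tested. No paired analysis was possible because each group is 1 library, so no replicates could be paired between groups; the intervals for HDAC3-YF minus FLAG pair sites, not samples. Depth is unknown and limits the lists in a way that cannot be measured here.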
